A study of Canis lupus familiaris with 18 samples.

Results

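The 12 canine osteosarcomas described here are the 6 with the highest and the 6 with the lowest mRNA of a pair of proliferation genes, out of 18 tumours in all. The rule for choosing them names 4 genes, TOP2A, CCNB1, BUB1 and BIRC5. CCNB1 and BUB1 have no named probe set in the platform annotation used here, so the score was the mean z-score of TOP2A and BIRC5, each taken from its probe set of highest mean over all arrays. The tumours are therefore called high and low by this 2-gene score. The tumours were thus chosen by measured values of TOP2A and BIRC5, which are given as a description only.

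Each tumour was a primary osteosarcoma of a dog, a malignant bone tumour whose cells lay down bone matrix, snap frozen at surgery, biopsy or necropsy. The study divided the dogs by serum alkaline phosphatase (ALP), with 9 tumours from dogs of normal and 9 from dogs of increased serum ALP. One Affymetrix canine array was run per tumour, with no normal tissue among the samples. Age, sex, breed, prior therapy and the procedure behind each tumour are not given in the sources used here. All samples were whole tissue, in which fewer cells of a type and less RNA per cell cannot be told apart.

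Dividing cells switch genes on in waves. Licensing factors load the replicative helicase on DNA in G1, E2F factors then drive the genes of S phase, and the MYBL2 and FOXM1 factors drive the kinases, kinesins and kinetochore proteins of mitosis. TOP2A, which untangles DNA before chromosomes part, and BIRC5 (survivin), a subunit of the chromosomal passenger complex, belong to the late wave.

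The high tumours had scores between 0.38 and 1.70, with a median of 0.54, and the low tumours between -2.94 and -0.32, with a median of -0.53. TOP2A lay between 11.92 and 13.46 in the high and between 9.44 and 11.33 in the low tumours, in deposited log2 signal. BIRC5 lay between 9.71 and 10.45 in the high and between 7.58 and 9.54 in the low tumours. The margins of the groups were narrow. The last tumour inside the high side scored 0.38 and the first outside it 0.31, and the last inside the low side scored -0.32 and the first outside it -0.27. One tumour at each end stood apart, increased ALP replicate 3 at 1.70 and normal ALP replicate 3 at -2.94.

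**Figure D1:**
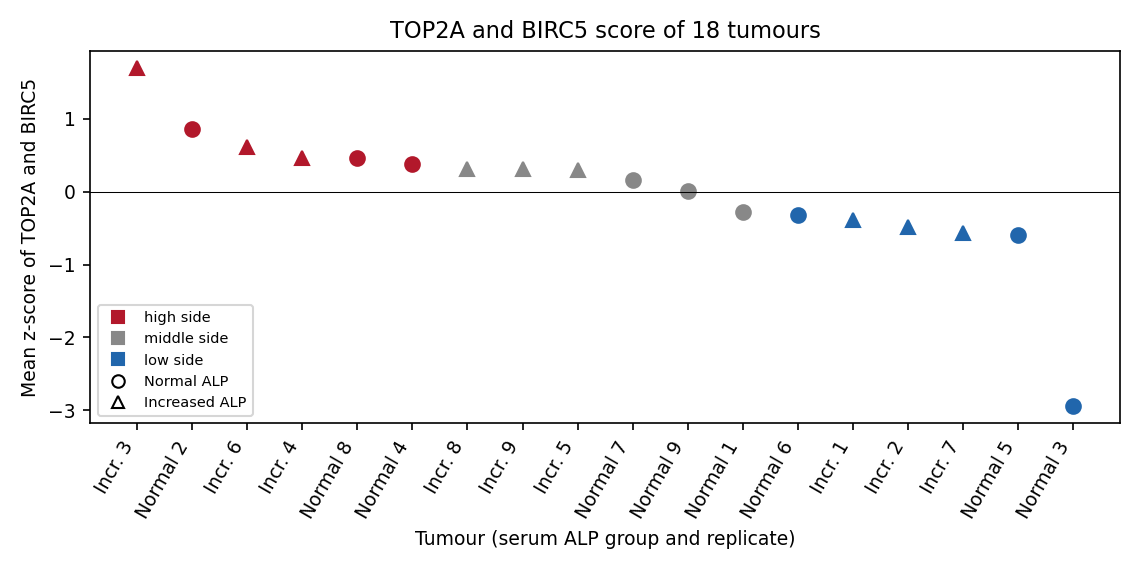
The 2-gene score of each of the 18 tumours, in order, coloured by side, with circles for normal and triangles for increased serum ALP. The high tumours run from 0.38 to 1.70 and the low tumours from -2.94 to -0.32.

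Increased ALP replicates 3 and 6, both on the high side, differed technically from the rest. Their signal for BioB, a bacterial RNA added in a fixed amount to every hybridisation, was 10.34 and 9.89, against 8.34 to 9.21 in the other 16 tumours. Their GAPDH signal at the 3' minus the 5' probe set, which grows as RNA is broken or copied short, was 2.07 and 2.38, against 0.99 to 1.90. Without these 2 tumours 6 list medians changed sign, those of the neutrophil, cartilage, Wnt, insulin-like growth factor, red cell precursor and B and plasma cell lists, and each is given below beside its list. The part of signal quality in the results was not tested.

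The serum ALP groups fell evenly on the sides. Each group had 3 tumours on the high side, 3 in the middle and 3 on the low side (Fisher's exact test, p = 1.0). The score averaged 0.25 ± 0.70 (SD, n = 9) with increased and -0.25 ± 1.10 (SD, n = 9) with normal ALP. This difference of 0.50 was smaller than the spread within either group (exact two-sided permutation test, p = 0.3). Without normal ALP replicate 3 it was 0.16. The contrast of high with low tumours was not detectably different between the ALP groups at any probe set: limma called 0 (0.0%) for the interaction, with 1470 (5.71%) at an unadjusted p under 0.05.

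A wider score described how far other cell division genes followed the 2-gene score. It was the mean z-score of 189 genes of 9 cell division lists, none of them TOP2A or BIRC5. Of the 6 high tumours 4 were also among the 6 highest by the wide score, and of the 6 low tumours 4 were among the 6 lowest. Normal ALP replicate 2 was the highest by the wide score (1.32) and normal ALP replicate 3 the lowest by both (-1.63 by the wide score). Increased ALP replicates 3 and 6, the tumours of high spike-in signal, fell in the middle at 0.20 and -0.10. Normal ALP replicate 5 lay on opposite sides, at -0.60 by the 2-gene and 0.37 by the wide score. The wider score thus put 4 high and 4 low tumours on the same side and the other 4 elsewhere. Its genes belong to the same programme as TOP2A and BIRC5, so this overlap is not independent support for a label of proliferation. The sides are named by the 2-gene score throughout.

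**Figure D2:**
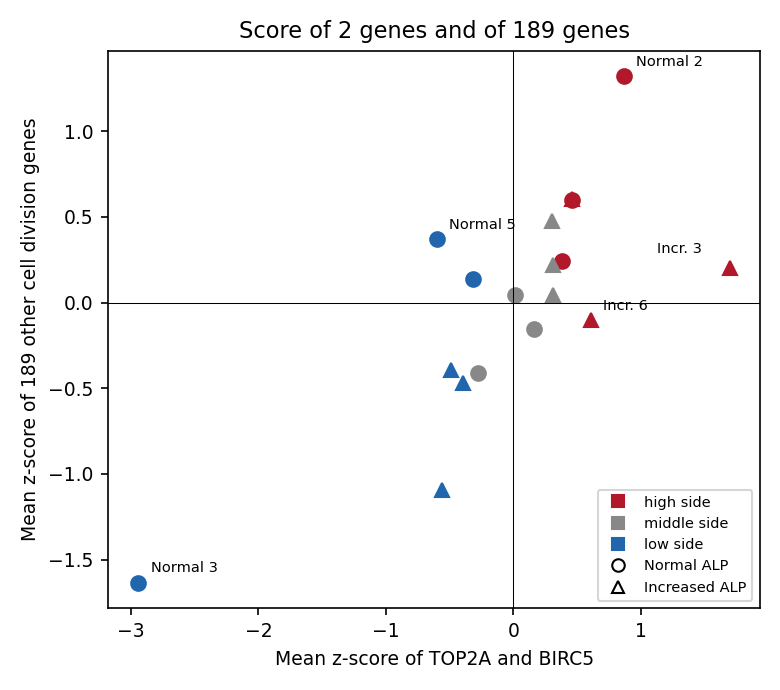
The 189-gene cell division score of each tumour against its 2-gene score, both as mean z-scores, coloured by side. Normal ALP replicate 3 is lowest on both axes, increased ALP replicates 3 and 6 are high on the 2-gene axis and in the middle of the other, and normal ALP replicate 5 lies on opposite sides.

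No probe set passed limma's test between the 6 high and the 6 low tumours. Of 25750 tested, none passed in either direction (0.0% higher, 0.0% lower) at a Benjamini-Hochberg threshold of 0.05, the lowest adjusted value being 0.643. By the unadjusted p, 870 probe sets (3.38%) were higher and 1084 (4.21%) lower with p under 0.05. Differences lay above 0 for 49.9% and below 0 for 50.1% of probe sets. By gene, with 1 probe set each, 439 of 10715 (4.1%) were higher and 376 (3.51%) lower at that p, and 52.2% lay above and 47.8% below 0. All high tumours lay above all low tumours for 53 probe sets (0.206%) or 25 genes (0.233%), and below them for 33 probe sets (0.128%) or 8 genes (0.0747%). With the score as a continuous term over all 18 tumours, limma called 80 probe sets higher (0.311%) and 29 lower (0.113%) with rising score. Without normal ALP replicate 3 it called 3 (0.0117%) and 0 (0.0%). Every difference below is therefore a value with its standard error (SE), high minus low. Levels and differences are in log2 of the signal plus 16, a scale on which changes of dim probe sets come out too small.

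The cell division genes stood higher in the high tumours as a body, while no single one passed the test. Of 189 tested, 179 (94.7%) had a difference above 0, against 51.4% of the genes outside these lists and 52.2% of all genes. Their median was 0.51, against 0.01 for all genes. At an unadjusted p under 0.05, 79 were higher and 0 lower, against 439 (4.1%) and 376 (3.51%) of all 10715 genes. In 6 of them, FANCA, SPAG5, FANCD2, CDC7, HMGB2 and CDC6, every high tumour lay above every low one, against 25 (0.233%) of all genes. TOP2A and BIRC5 belong to the same programme, so the direction of these genes is not independent of how the tumours were chosen.

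Genes of replication licensing came first in the cycle. In this list 22 of 23 stood above 0, with a median of 0.51. At an unadjusted p under 0.05, 10 were higher, against 4.1% of all genes. CDC7, the kinase that fires origins, lay between 8.56 and 9.72 (median 9.01) in the high and between 7.53 and 8.51 (median 8.13) in the low tumours, a difference of 0.98 ± 0.22 (SE; limma, adjusted p = 0.643). The groups did not overlap. CDC6, which helps load the helicase, lay between 8.08 and 9.45 (median 8.35) against 5.51 to 8.06 (median 7.25), again with no overlap, and stood 1.42 ± 0.42 higher. ORC1, the largest subunit of the origin recognition complex, stood 1.54 ± 0.44 higher, with a high tumour at 8.10 below the top low tumour at 8.31. Without normal ALP replicate 3 CDC6 stood 1.10 and ORC1 1.23 higher.

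Genes that make DNA and pack it also stood higher. DNA synthesis and nucleotide supply had 26 of 27 above 0 (median 0.46), and replication-coupled chromatin 20 of 21 (median 0.35). POLD1, the catalytic subunit of DNA polymerase delta, lay between 7.97 and 8.75 (median 8.59) in the high and between 7.25 and 8.26 (median 7.59) in the low tumours. It stood 0.78 ± 0.21 higher, and the groups overlapped. HMGB2, a chromatin protein abundant in dividing cells, lay between 12.01 and 12.37 (median 12.15) against 11.25 to 11.89 (median 11.76), with no overlap. CHAF1A and CHAF1B, which place histones on new DNA, stood 0.59 ± 0.20 and 0.46 ± 0.16 higher.

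The transcription factors of the cycle all stood above 0, 11 of 11, with a median of 0.49. FOXM1, the factor of the mitotic genes, stood 0.97 ± 0.32 higher, MYBL2 0.87 ± 0.32 and E2F1 0.37 ± 0.13. All 3 overlapped between the sides. Repair of broken forks by homologous recombination had 16 of 17 above 0, with a median of 0.53. FANCA, of the Fanconi core complex, had the smallest p of all named genes, lying between 7.59 and 7.86 (median 7.70) in the high and between 6.89 and 7.42 (median 7.04) in the low tumours. Its difference was 0.62 ± 0.12, or 1.54-fold. FANCD2, which that complex modifies, lay between 9.23 and 9.88 (median 9.48) against 8.13 to 9.00 (median 8.65) and did not overlap. BRCA1 stood 0.53 ± 0.13 higher with overlap.

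Mitotic genes stood higher as well. Kinesins, spindle and cytokinesis genes had 26 of 26 above 0 and a median of 0.89. Of them 19 were higher at an unadjusted p under 0.05, against 4.1% of all genes. Mitotic kinases and checkpoint genes had 24 of 24 above 0 (median 0.72), and kinetochore genes 21 of 22 (median 0.58). Without normal ALP replicate 3 these 3 medians were 0.69, 0.42 and 0.38. SPAG5, a spindle protein, lay between 8.70 and 9.35 (median 8.95) in the high and between 6.28 and 8.22 (median 7.81) in the low tumours, with no overlap, and stood 1.39 ± 0.28 higher, 2.62-fold. It stood 1.12 higher without normal ALP replicate 3, the tumour at 6.28. DLGAP5 and TPX2, which build the spindle, stood 1.45 ± 0.43 and 1.18 ± 0.35 higher. AURKA, the centrosome kinase, stood 1.07 ± 0.34 and AURKB, the kinase partner of BIRC5, 0.80 ± 0.26 higher. CENPF and NDC80 of the kinetochore stood 1.39 ± 0.42 and 1.12 ± 0.36 higher.

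Condensins and cohesins were less uniform, with 13 of 18 above 0 and a median of 0.28. SMC4, the condensin ATPase, lay between 10.47 and 11.34 (median 10.86) against 9.37 to 10.71 (median 9.76), with overlap. G1 regulators, which hold or release cells before replication, were spread around 0, with 10 of 19 above and a median of 0.01, which lay between -0.02 and 0.12 with each tumour left out in turn. At an unadjusted p under 0.05, 1 of these 19 was higher and 0 lower, near the 4.1% and 3.51% of all genes. The higher gene was CDKN2C, an inhibitor of CDK4 and CDK6, at 0.73 ± 0.16. It lay between 11.36 and 12.11 (median 11.92) in the high and between 10.71 and 11.44 (median 11.15) in the low tumours.

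**Figure D3:**
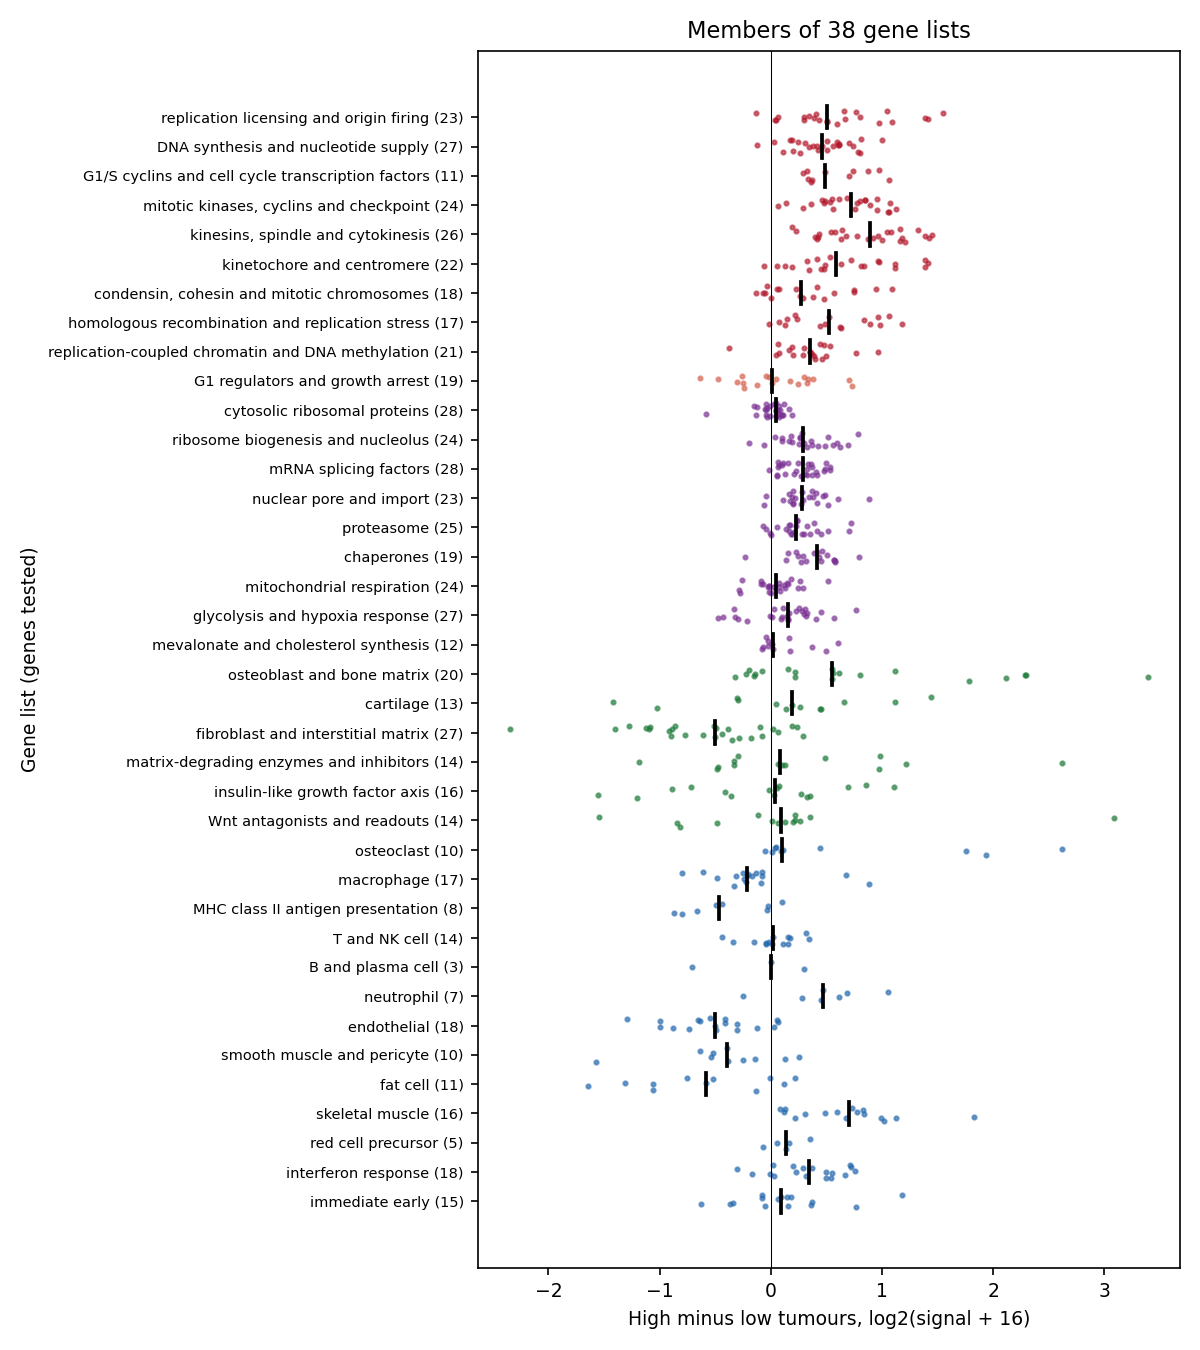
High minus low difference of each tested member (points) of 38 gene lists, on the log2(signal + 16) scale, with each list's median as a bar. The medians of the 9 cell division lists lie between 0.28 and 0.89, and those of the fibroblast, endothelial and fat cell lists between -0.59 and -0.50.

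Some growth machinery stood higher too, and some did not. Splicing factors had 27 of 28 above 0 (median 0.29) and ribosome biogenesis 22 of 24 (median 0.29). Nuclear pore and import had 21 of 23 (median 0.28), chaperones 18 of 19 (median 0.42) and the proteasome 22 of 25 (median 0.23). Scores of these lists, the mean deviation of their genes from the means over all tumours, overlapped between the sides. Chaperone scores had a median of 0.00 in the high and -0.30 in the low tumours, and splicing scores 0.015 and -0.14. Among the high tumours, normal ALP replicate 2 came first (0.735 and 0.503), then replicate 4 with increased ALP (0.389 and 0.239). The other high tumours reached 0.008 and 0.030 at most, below the highest low tumour (0.246 and 0.034). PRPF8, the core protein of the spliceosome, lay between 11.96 and 12.52 (median 12.18) against 11.56 to 11.85 (median 11.69), with no overlap. KPNA2, an import receptor, stood 0.88 ± 0.29, NPM1, a nucleolar protein, 0.79 ± 0.29, and CCT5, of the chaperonin that folds actin and tubulin, 0.57 ± 0.18 higher. The ribosome biogenesis median was 0.16 without normal ALP replicate 2 and that of the proteasome 0.14 without normal ALP replicate 3. Without the 2 tumours of high spike-in signal they were 0.44 and 0.40. Ribosomal proteins were near 0, with 16 of 28 above and a median of 0.05, as were respiratory chain genes, with 14 of 24 and 0.04, and mevalonate genes, with 7 of 12 and 0.02. With each tumour left out in turn, these 3 medians lay on both sides of 0.

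Outside the cell division lists, 12 more genes were named by their p. XPO5, the exporter of pre-miRNAs, lay between 8.24 and 8.89 (median 8.41) in the high and between 7.62 and 7.94 (median 7.78) in the low tumours and stood 0.73 ± 0.14 higher. KDM1A, a histone demethylase, lay between 10.35 and 11.02 (median 10.79) against 10.03 to 10.21 (median 10.14). Neither overlapped between the sides. UCHL1, a ubiquitin hydrolase known from neurons, had the widest gap of the 12, at 1.87 ± 0.47, with overlap. The others were POC1A, CCDC150, ZGRF1, TMIE, CCNB3, REXO5 and NUFIP2, between 0.44 and 1.18 higher, with CDKN2C and PRPF8 given above. Of these 12 genes 8 did not overlap between the sides, against 25 of all 10715 genes (0.233%). Since they were picked by p between these same sides, that count follows largely from the choice.

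Bone-forming genes stood higher in the high than in the low tumours by their median, with wide spread. The osteoblast list score had a median of 0.39 in the high, 0.46 in the middle and -0.89 in the low tumours. By this score the high tumours did not stand above the middle ones. Of 20 osteoblast genes 14 were above 0 (median 0.55), and 5 were higher at an unadjusted p under 0.05 (4.1% of all genes). PTH1R, the parathyroid hormone receptor of osteoblasts, lay between 10.54 and 11.84 (median 11.55) in the high and between 6.72 and 11.27 (median 8.70) in the low tumours, and stood 2.29 ± 0.67 higher (limma, adjusted p = 0.643). DLX5, an osteoblast transcription factor, stood 1.78 ± 0.59 and OMD, a bone matrix proteoglycan, 2.12 ± 0.86 higher. Both overlapped: low tumours reached 10.06 for DLX5, where high tumours began at 9.37. For OMD low tumours reached 13.23 and high tumours 12.90. ALPL, the gene of the bone and liver alkaline phosphatase, lay between 11.03 and 13.53 (median 12.10) against 6.50 to 13.57 (median 9.27). It stood 2.29 ± 1.02 higher (limma, adjusted p = 0.659), and the highest ALPL of these 12 tumours was on the low side. Leaving out increased ALP replicate 4 gave a list median of 0.23, leaving out normal ALP replicate 8 gave 0.26, and leaving out increased ALP replicate 7 gave 0.34.

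Signalling genes differed singly. IGF1R, the receptor of insulin-like growth factors, lay between 7.96 and 9.64 (median 8.19) in the high and between 7.52 and 7.89 (median 7.70) in the low tumours, with no overlap. IGFBP6, which binds IGF2, went the other way at -1.20 ± 0.32, and the whole list was near 0 (9 of 16 above, median 0.04; -0.03 without the 2 tumours of high spike-in signal). WIF1, a secreted Wnt inhibitor made by osteoblasts, stood 3.09 ± 1.40 higher, with low tumours spread from 5.47 to 13.72. MMP9, the gelatinase abundant in osteoclasts, stood 2.62 ± 1.35 higher, and MMP2, the gelatinase of fibroblasts, lay at -1.18 ± 0.66.

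Fibroblast and interstitial matrix genes stood lower in the high than in the low tumours, with 5 of 27 above 0 and a median of -0.50. Of them 6 were lower at an unadjusted p under 0.05, against 3.51% of all genes. The fibroblast list score had a median of -0.39 in the high, -0.31 in the middle and 0.45 in the low tumours. THY1 and PDGFRB, surface proteins of fibroblasts and pericytes, lay at -1.13 ± 0.40 and -0.91 ± 0.31, and COL6A3, a collagen VI chain, at -0.78 ± 0.31. Endothelial genes had 3 of 18 above 0 (median -0.50; -0.33 without normal ALP replicate 2), and none had an unadjusted p under 0.05. PECAM1, an adhesion protein of vessel lining, lay between 9.06 and 11.97 (median 11.10) in the high and between 10.19 and 12.75 (median 12.22) in the low tumours. EGFL7, secreted by that lining, lay at -0.88 ± 0.41. Fat cell genes had 2 of 11 above 0 (median -0.59), and leaving out increased ALP replicate 1 gave -0.37, leaving out replicate 7 of the same ALP group gave -0.91, and sides from BIRC5 alone gave 0.03. The level of ADIPOQ, the fat hormone, reached 12.49 in 1 low tumour while the high tumours lay between 5.84 and 8.30.

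The 12 genes named by p as lower were of mixed function. C1R, a complement protease, lay between 8.68 and 10.71 (median 9.35) in the high and between 9.89 and 11.79 (median 11.18) in the low tumours, a difference of -1.56 ± 0.37. AHNAK, a very large scaffold protein, lay between 7.50 and 8.14 (median 7.81) against 8.19 to 9.54 (median 8.77), with no overlap. ECM1, a secreted matrix protein, lay at -1.25 ± 0.31, CRIP1 at -1.22 ± 0.29 and TPPP3, a tubulin-binding protein, at -1.49 ± 0.40. Of these 12, picked by p, only AHNAK and ETFRF1 did not overlap, against 8 of all 10715 genes (0.0747%) in this direction. PLEKHA4 lay at -0.67 ± 0.16, and its 1 other probe set went the other way.

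**Figure D4:**
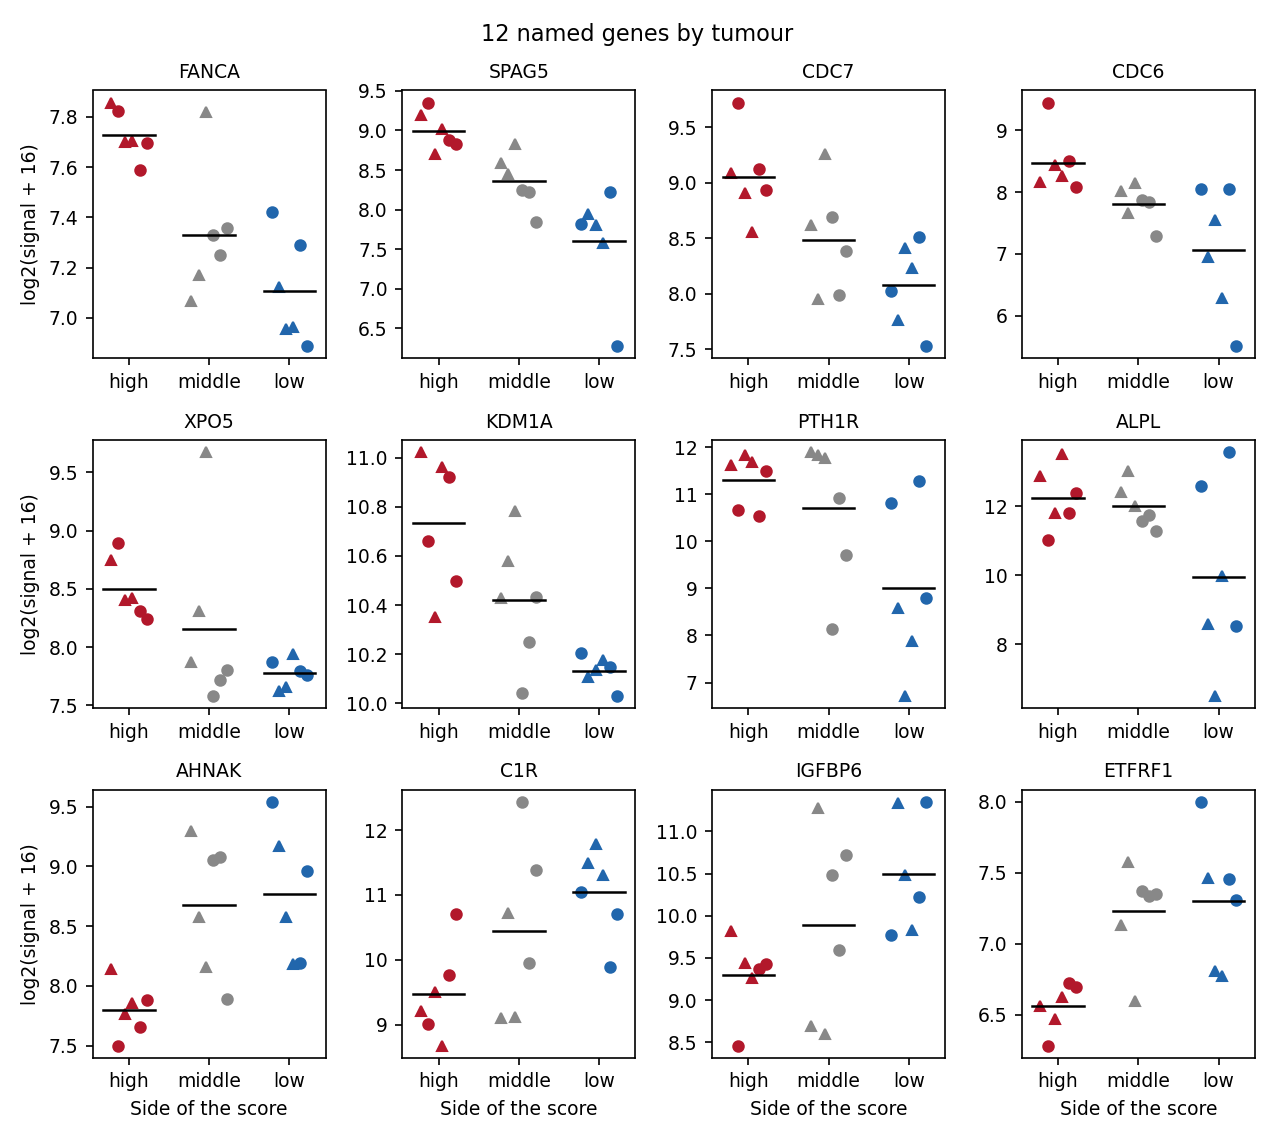
Level of 12 named genes in each high, middle and low tumour, on the log2(signal + 16) scale, with bars at the means, circles for normal and triangles for increased serum ALP. The sides do not overlap for FANCA, SPAG5, CDC7, CDC6, XPO5 and KDM1A among the higher and for AHNAK and ETFRF1 among the lower genes. They overlap for PTH1R, ALPL, C1R and IGFBP6.

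The 6 middle tumours did not enter the comparison. Their FANCA lay between 7.07 and 7.82 (median 7.29) and their AHNAK between 7.89 and 9.30 (median 8.82), so both overlapped with both sides. Their XPO5 lay between 7.58 and 9.67 (median 7.84), and its highest value stood above all high tumours. WIF1 and MMP9 averaged 12.4 and 12.8 in the middle tumours, against 12.2 and 12.5 in the high and 9.1 and 9.9 in the low tumours. Since the named genes were picked for a gap between the sides, a middle value between them is no evidence of a graded relation.

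Markers of other cells differed in part through single tumours. Macrophage genes had 2 of 17 above 0 (median -0.22). Leaving out 1 tumour of increased ALP gave a median of -0.09 for replicate 1, -0.03 for replicate 2, -0.06 for replicate 4 and -0.41 for replicate 6, and leaving out 1 of normal ALP gave -0.34 for replicate 2 and -0.08 for replicate 8. With sides from BIRC5 alone the median was 0.16. MHC class II genes had 1 of 8 above 0 (median -0.47; -0.21 without normal ALP replicate 8 and -0.26 without increased ALP replicate 2). Osteoclast genes had 9 of 10 above 0 with a small median of 0.10, between 0.00 and 0.35 with each tumour left out. T and NK cell genes had 8 of 14 above 0 (median 0.02), between -0.07 and 0.14 with each left out. Neutrophil genes had 6 of 7 above 0 (median 0.47), but the median was -0.11 without the 2 tumours of high spike-in signal, whose neutrophil list scores (the mean deviation of its genes from their means over all tumours) were 1.97 and 1.38. Skeletal muscle genes had 16 of 16 above 0 (median 0.70), and the median was 0.08 without increased ALP replicate 4, whose score was 2.66. It was -0.19 with sides from the 189-gene score. The fibroblast list score lay between -0.59 and 0.80 in the high and between -0.39 and 0.93 in the low tumours, and the endothelial score between -1.06 and 0.44 against -0.55 to 0.98. The part of these cells in the results was not tested.

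The remaining lists had few genes past an unadjusted p of 0.05. Glycolysis genes had 20 of 27 above 0 (median 0.16), and the median lay between 0.05 (without increased ALP replicate 6) and 0.29 (without increased ALP replicate 3) with each tumour left out. Interferon response genes had 15 of 18 above 0 (median 0.34). Their median was 0.21 without normal ALP replicate 8, and leaving out increased ALP replicate 1 gave 0.62. With sides from the 189-gene score it was 0.00. Immediate early genes had 9 of 15 above 0 (median 0.09; -0.20 without normal ALP replicate 4), with JUN at 1.18 ± 0.50. Matrix-degrading enzymes had 8 of 14 above 0 (median 0.08; -0.13 without normal ALP replicate 8). Wnt genes had 9 of 14 above 0 (median 0.09), but 6 of 14 without the 2 tumours of high spike-in signal (median -0.09). Cartilage genes had 9 of 13 above 0 (median 0.19; -0.20 without increased ALP replicate 6 and -0.23 without both tumours of high spike-in signal). Smooth muscle and pericyte genes had 2 of 10 above 0 (median -0.39; -0.09 without normal ALP replicate 3). Red cell precursor genes had 4 of 5 above 0 (median 0.14) and B and plasma cell genes 2 of 3 (median 0.01). Without the 2 tumours of high spike-in signal these were 1 of 5 (median -0.009) and 1 of 3 (median -0.14).

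**Figure D5:**
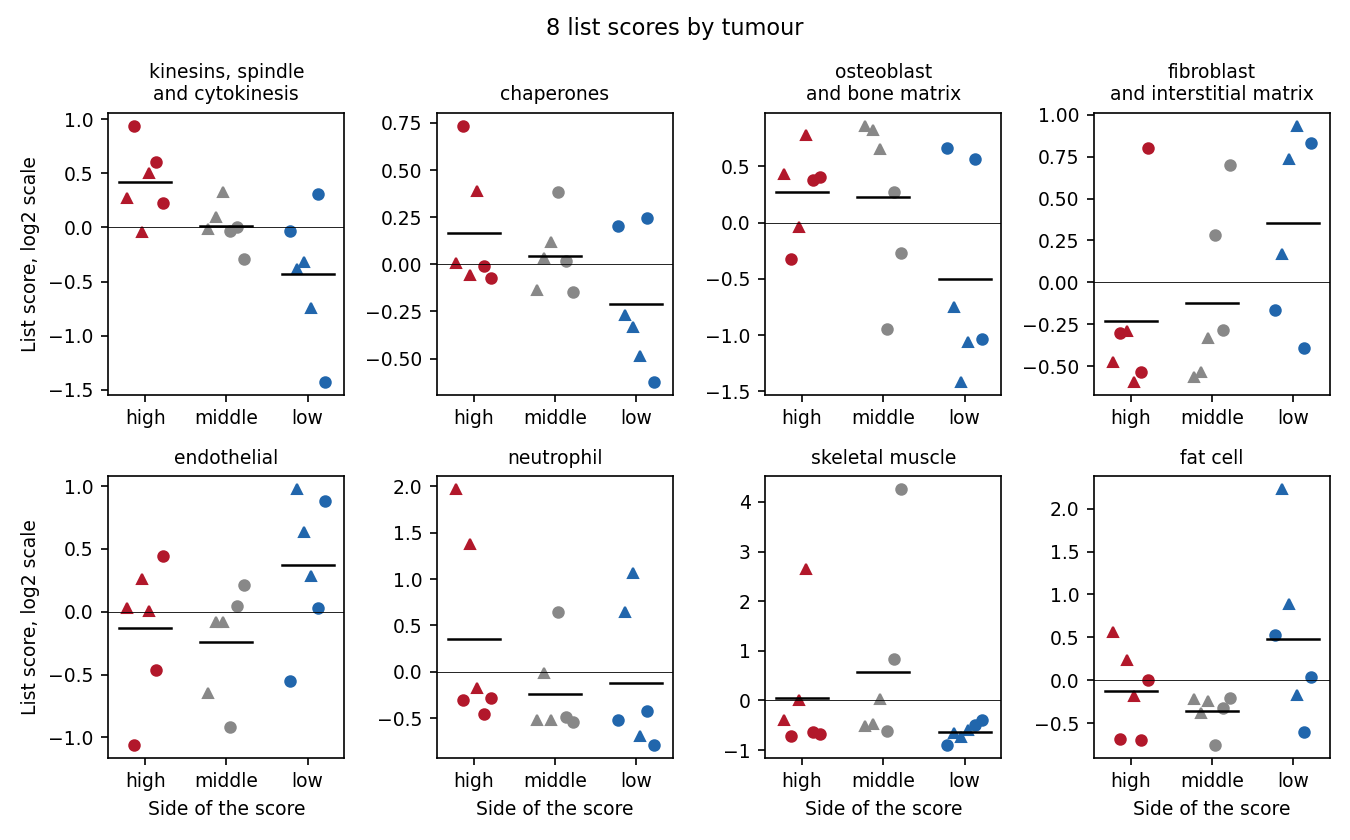
Score of 8 gene lists in each tumour by side, as the mean deviation of the members from their means over all tumours on the log2 scale, with bars at the side means. The kinesin score lies between -0.04 and 0.94 in the high and between -1.42 and 0.31 in the low tumours, and the fibroblast score between -0.59 and 0.80 against -0.39 to 0.93, so both overlap.

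When the 6 highest and 6 lowest tumours were taken by the 189-gene score instead, a choice made after seeing the data, limma did call genes. Over all probe sets 623 (2.42%) were higher and 365 (1.42%) lower. This count includes genes that made the score, and their calls follow from the choice of the sides. Probe sets without a single symbol could not be matched to the lists, so a count outside them may still hold cell division genes. Outside the cell division lists by name, 528 of 25429 probe sets (2.08%) were higher and 365 (1.44%) lower. Among them were 8 of 20 osteoblast genes higher (list median 1.38), PTH1R by 2.93 (adjusted p = 0.013), DLX5 by 2.01 (adjusted p = 0.035) and OMD by 3.76 (adjusted p = 0.014). The osteoclast list had 3 of 10 called higher, ACP5, the osteoclast acid phosphatase, among them by 3.96 (adjusted p = 0.035). The fibroblast list had 3 of 27 called lower, and C1R and IGFBP6 were called lower, with differences of -1.99 and -1.48 (adjusted p = 0.021 and 0.035). The endothelial list had 0 called in either direction there (median -0.41).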

How the data were processed

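The authors deposited log2 signals of 43035 probe sets for 18 arrays, ranging from 2.03 to 15.09. MAS5 is named in the submitters' processing notes, and the summary method and its normalization are otherwise not given in the sources used here. An offset of 16 was added to the signal on the linear scale before log2 was retaken. Probe sets below the 40th percentile of the mean (6.15) were left out, which left 25754, and the 4 named for TOP2A or BIRC5 were removed. Any unnamed probe set of CCNB1 or BUB1 could not be removed. Names came from the platform annotation: 1 symbol for 29254 probe sets, several for 439, and 13231 unnamed here. Gene IDs of 27680 were found in RefSeq (UU_Cfam_GSD_1.0). The rule's scoring genes CCNB1 and BUB1 had no named probe set, so planned scores from 3 of 4 genes were replaced by TOP2A alone and BIRC5 alone. The sides were compared with limma 3.58.1 in R 4.3.3 (lmFit; eBayes with trend). Tests were two-sided and adjusted by Benjamini-Hochberg over 25750 probe sets.

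Genes use their probe set of highest mean. Those named are the 8 cell division and 12 other genes of smallest p higher, the 12 lower, 3 of smallest p per list, and ALPL; none passed the threshold. The members and lists were chosen with earlier results of these data known. Lists are described by counts and medians. The fit was tested on simulated data of this size, drawn independently for each probe set. It did make calls there, and it missed most of the 1.5-fold and some of the 2-fold changes. The labels number the tumours but do not state that each came from a different dog, so p-values measure the spread between these samples. The number of arrays limits the precision. Alternatives covered offsets, filters, normalization, eBayes options, weights, covariates, numbers of tumours a side and each tumour left out. Promoter motifs were planned and not analysed here. Scores, exact tests and plots were made in Python 3.11.15 (NumPy 2.4.6, SciPy 1.17.1; pandas 2.3.3; plots by matplotlib 3.10.9).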

Additional observations from a re-analysis of the deposited data

Results flagged for a closer look

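In 68 groups of tumours examined, 8 had 1 tumour far from the others. Some of these groups were cut by the score itself or show genes picked for a gap between the sides. The count can therefore not be set against a chance rate. Of the 8, 5 concern normal ALP replicate 3. Its 2-gene score of -2.94 was far below the other low tumours and also far below the other tumours of normal ALP. It was also the lowest low tumour for SPAG5 (6.28), CCDC150 (6.37) and REXO5 (8.15). Increased ALP replicate 3 had the highest score of the high tumours, at 1.70, and is one of the 2 tumours of high spike-in signal. Normal ALP replicate 2 was far above the other high tumours for CCDC150 (9.32), and normal ALP replicate 8 for TMIE (7.33).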

How the results depend on the processing

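The count of 0 called probe sets held under every alternative run with limma except 3. With the 2-gene score as a continuous term over 18 tumours, 109 were called, 80 higher and 29 lower; without normal ALP replicate 3 this was 3, 3 higher and 0 lower. With sides from the 189-gene score it was 988, 623 higher and 365 lower, a count that includes genes of that score. Leaving out each tumour in turn, 0 were called each time, with 599 to 1088 higher and 716 to 1563 lower at an unadjusted p under 0.05. With the replicate block (tissue numbers, consensus correlation 0.057) 0 were called, and 926 were higher and 1183 lower at that p. With the mean of its ALP group subtracted at each probe set, same-numbered tumours correlated between -0.16 and 0.27, above 0.1 in 4 of 9 pairs. The numbers were therefore not taken as pairs. The score difference between ALP groups lay between 0.164 and 0.64 with each tumour left out (exact permutation p 0.178 to 0.6).

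Over 4698 values of 135 named genes under alternatives, 4611 kept their direction uncalled, 51 were called in the same direction and 36, in 12 genes, turned, none of them called; the cause was not tested. None of the 32 genes named by p turned. With sides from the 189-gene score the turned values were CD36 0.102, ELANE -0.061, GATA1 -0.081, HAPLN1 -0.162, IL2RB -0.026, POU2AF1 -0.225, RPL27 -0.052, SPTB -0.034 and TNNT1 -0.305. Without the 2 tumours of high spike-in signal they were ELANE -0.013, GATA1 -0.012, SPTB -0.009 and POU2AF1 -0.136, and without these and the lowest tumour ELANE -0.001, SPTB -0.008 and POU2AF1 -0.127. From BIRC5 alone they were CD36 0.372, JUN -0.044 and TNNT1 -0.54, and from TOP2A alone CCN1 -0.109. CCN1 was -0.024 with 4 tumours a side, and with 9 a side TNNT1 was -0.426 and POU2AF1 -0.073. TNNT1 was -0.37 with the continuous score without the lowest tumour. POU2AF1 was -0.003 with quantile normalization, -0.118 with array weights, -0.069 with the GAPDH and -0.112 with the BioB covariate, and leave-one-out values lay between -0.06 and 0.072. For JCHAIN they lay between -0.034 and 0.652. Of 38 list medians 20 never turned, the 9 cell division, the osteoblast, the fibroblast and the endothelial lists among them. The other 18 turned under at least 1 alternative: skeletal muscle (down to -0.362), fat cell (up to 0.027), macrophage (up to 0.157), neutrophil, cartilage, osteoclast, T and NK cell, B and plasma cell, red cell precursor, immediate early, matrix-degrading, insulin-like growth factor, Wnt, glycolysis, mevalonate, respiration, ribosomal protein and G1 regulator lists.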
